A study of Mus musculus with 12 samples.

Results

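The transcripts described here are the small nucleolar RNAs (snoRNAs), the small Cajal body RNAs, the small nuclear RNAs and the Y RNAs of mouse N2A neuroblastoma cells. Members were the probe sets of a whole-transcript gene array whose single gene symbol begins with Snora, Snord, Scarna, Rnu or Rny, and there were 67 of them, for 61 genes, among 21789 probe sets with a single symbol. They comprised 34 box C/D probe sets for 32 genes, 23 box H/ACA probe sets for 20 genes, 4 Cajal body probe sets for 3 genes, 4 small nuclear RNA probe sets (Rnu12, Rnu5g, Rnu6 and Rnu7) and 2 Y RNA probe sets (Rny1 and Rny3). Rnu3a was placed with box C/D because the U3 RNA it encodes belongs to that class. RefSeq annotates all 67 as small non-coding RNA genes, 59 of them inside the span of another gene.

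The 12 arrays fall into 4 groups of 3. The KD cells carried a stable short hairpin RNA construct against Dali, a long non-coding RNA transcribed near the transcription factor gene Pou3f3, and the control cells carried a stable non-targeting (scrambled) construct. Each kind of cell was taken after 72 h in medium with 20 µM all-trans retinoic acid (RA), which drives N2A cells towards a neuronal form, or while proliferating. The medium with RA held 2% serum and the growth medium 10%, so that the effect of RA and that of less serum cannot be told apart. All cells had been selected with hygromycin as drug-resistant clones, and the study's methods call the replicates biological without saying if they are different clones or separate cultures of 1 clone. The p-values therefore cover the spread among these arrays. KD and control cells come from different drug-resistant clones, so that an effect of Dali and a difference between clones cannot be told apart. None of the probe sets with a single symbol was named for Dali, and its level was not analysed here.

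Box C/D snoRNAs guide fibrillarin to methylate ribose in ribosomal RNA, and box H/ACA snoRNAs guide dyskerin to convert uridine to pseudouridine. A few members of each class, among them U3, U8 and the U17 snoRNAs Snora73a and Snora73b, are needed for cleavage of the ribosomal RNA precursor. Most mammalian snoRNAs are cut and trimmed out of introns of host genes, many of which encode ribosomal proteins or translation factors. Small Cajal body RNAs guide the same modifications on spliceosomal RNAs, the U5, U6 and U12 RNAs work in the spliceosome, U7 RNA guides the 3′ end cleavage of histone mRNA, and Y RNAs bind the Ro60 protein.

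After RA, most members lay higher in KD cells than in control cells. The difference passed the test and was a log2 difference of at least 0.39 in 30 member probe sets, for 27 genes, and it reached 2.19-fold for the spliceosomal RNA gene Rnu5g. While the cells were proliferating only 4 members were higher in KD cells and 1 was lower. Of the 26 genes holding a member whose own level was measured, Gas5 alone had a probe set called in the same comparison after RA. That was 1 of 78 host probe sets, where 1.82% of all tested probe sets were called higher and 1.98% lower.

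Members varied more between arrays of 1 group than most probe sets did. Their median residual standard deviation (SD) was 0.131 on the log2 scale, against 0.0779 over all tested probe sets, and their median range over the 12 arrays was 0.65, against 0.37. They also varied together, since the mean correlation of their deviations from the group means was 0.448 over the 64 distinct member profiles, against 0.0131 over all tested probe sets. In consequence the members are not independent of one another, and a shift of 1 array moves many of them at once. Among proliferating KD arrays, replicate 1 held the lowest value of 54 members, and among proliferating control arrays replicate 1 held the lowest of 57 and replicate 2 the highest of 52. After RA, replicate 1 held the highest value of 45 members among KD arrays and of 43 among control arrays, while KD replicate 2 held the lowest of 41 and control replicate 3 the lowest of 37. Replicate 1 was thus low for most members in both proliferating groups and high for most in both RA groups. The medians of whole arrays lay between 7.146 and 7.209 on the log2 scale. Of the markers of neuroblasts of the sympathoadrenal line, 11 of 11 measured lay above the median level of the tested probe sets, against 2 of 6 fibroblast, 0 of 6 immune and endothelial and 0 of 5 glial markers.

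**Figure D1:**
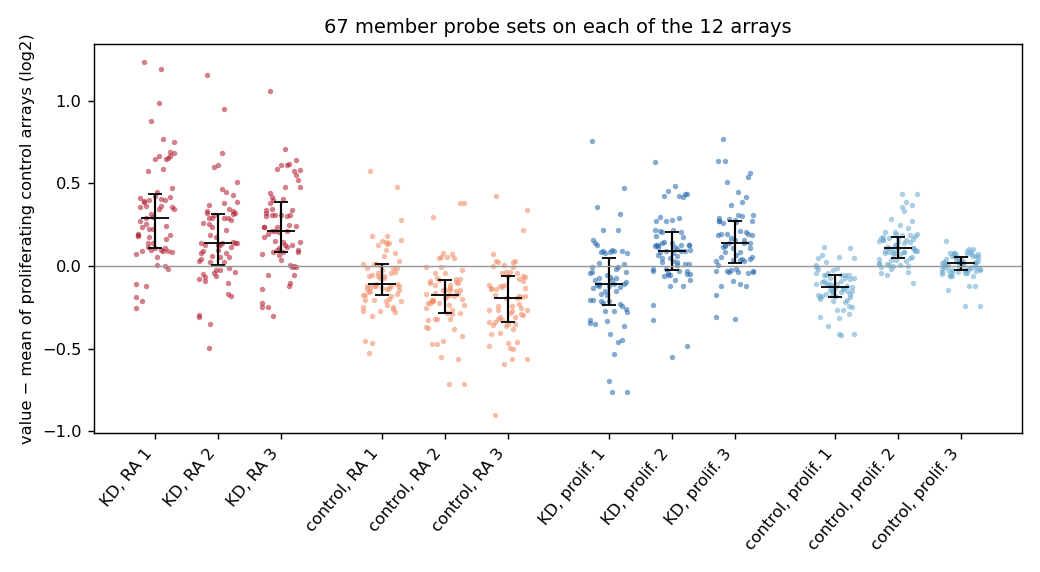
Each point is 1 of the 67 member probe sets on 1 array, as its log2 value minus the mean of the 3 proliferating control arrays, and bars give the median and quartiles of an array. The medians of the 3 KD arrays after RA lay at 0.29, 0.13 and 0.22, above those of the 3 control arrays after RA, at -0.11, -0.18 and -0.19.

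The comparison of KD with control cells after RA asked which transcripts differ between these cells in the differentiated state. A probe set was called changed at a Benjamini-Hochberg adjusted p under 0.05 over all 21789 probe sets and a difference of at least 1.3-fold. Of the members, 30 of 67 were called higher, where 1.82% of all tested probe sets were, and 0 were called lower, where 1.98% of all were. At an unadjusted p under 0.05 by the same limma fit, 51 members were higher and 1 lower, against 13.9% and 19% of all tested probe sets. The 3 KD arrays lay above all 3 control arrays for 51 members and below them for 1, against 14.7% and 19.2% of all tested probe sets. The median member difference was 0.37 on the log2 scale, against a median of -0.03 over all tested probe sets. The count was 20 without KD replicate 1 after RA and 33 without KD replicate 2 after RA, the lowest and the highest of the 12 counts with 1 array left out.

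Both snoRNA classes carried these calls. Of the box C/D probe sets, 18 of 34 were called higher, with a median difference of 0.46 over all 34, and of the box H/ACA probe sets, 11 of 23 were called higher, with a median of 0.38 over all 23. Among the small nuclear RNAs 1 of 4 was called. Of the 4 Cajal body probe sets and the 2 Y RNA probe sets 0 were called, while at an unadjusted p under 0.05 in the limma fit 3 Cajal body probe sets were higher and 1 lower and both Y RNA probe sets were higher. Whether the classes differ from one another was not tested.

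**Figure D2:**
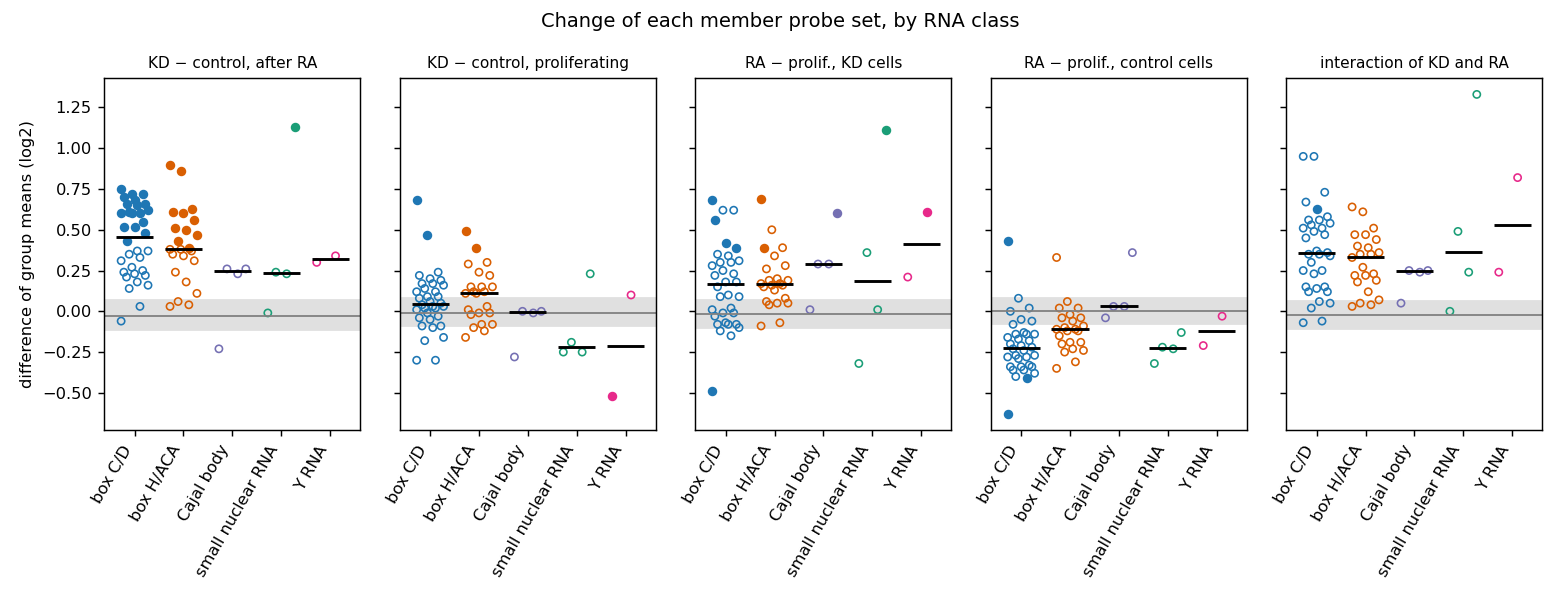
Each circle is 1 member probe set and its height is the difference of group means on the log2 scale, in the comparison named above the panel. Filled circles were called, black bars are class medians, and the grey line and band are the median and quartiles of all 21789 tested probe sets. In the panel of KD minus control after RA the box C/D and box H/ACA medians, 0.46 and 0.38, lie above the band.

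Rnu5g, which encodes a U5 RNA of the spliceosome and lies inside the predicted gene Gm40527, had the largest difference. Its log2 values were 5.89, 5.65 and 5.31 in KD cells after RA, against 4.56, 4.57 and 4.32 in control cells after RA. All 3 KD arrays lay above all 3 control arrays, and the difference was 1.13 ± 0.2 (SE; 95% interval 0.7 to 1.56; adjusted p = 0.00153). In proliferating cells it read 4.17, 4.76 and 4.59 in KD cells, against 4.28, 5.03 and 4.79 in control cells, so that the groups overlapped. The values of Rnu5g are low on this array, where the level of only 7.5% of the tested probe sets is as low or lower.

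Among box H/ACA snoRNAs, Snora33, which lies in the ribosomal protein gene Rps12, and Snora69, which lies in Rpl39, differed most. Snora33 read 10.56, 10.26 and 10.28 in KD cells after RA, against 9.67, 9.4 and 9.33 in control cells after RA, a difference of 0.9 ± 0.18 (SE; adjusted p = 0.00345). Snora69 read 10.22, 9.9 and 10.07 in KD cells after RA, against 9.32, 9.19 and 9.1 in control cells after RA, a difference of 0.86 ± 0.17 (SE; adjusted p = 0.00357). In both cases the lowest KD array lay above the highest control array. In proliferating KD cells the corresponding differences were 0.29 for Snora33 and 0.22 for Snora69, and neither was called (adjusted p = 0.321 and 0.445).

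Among box C/D snoRNAs the largest differences were those of Snord33, Snord58b and Snord61. The values of Snord61 and Snord58b are low on this array. The level of 15.7% of the tested probe sets is as low as that of Snord61 or lower. For the 2 Snord58b probe sets the shares are 16.0% and 21.7%. Snord33, inside Rpl13a, read 9.87, 9.48 and 9.69 in KD cells after RA, against 9.09, 8.82 and 8.89 in control cells after RA (difference 0.75, adjusted p = 0.0142). Snord61, inside the RNA-binding protein gene Rbmx, read 6.28, 6.2 and 6.1 in KD cells after RA, against 5.62, 5.34 and 5.47 in control cells after RA (difference 0.72, adjusted p = 0.000691). The groups were apart for both genes. The first Snord58b probe set read 6.18, 6.0 and 5.64 in KD cells after RA, against 5.65, 4.78 and 5.23 in control cells after RA, and here the groups overlapped in spite of the call (difference 0.72, adjusted p = 0.0185). Snord58b has 2 probe sets with nearly the same values, and the first was not called without RA-treated KD replicate 1 (adjusted p = 0.0748), KD replicate 2 (adjusted p = 0.0579) or control replicate 2 (adjusted p = 0.0715). Snord33 was not called without RA-treated KD replicate 1 (adjusted p = 0.057) or control replicate 2 (adjusted p = 0.0536).

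Some other box C/D members, among them Snord14e and Snord52, had smaller errors. Snord14e, a U14 RNA gene in the heat shock cognate gene Hspa8, read 10.62, 10.55 and 10.67 in KD cells after RA, against 10.08, 10.02 and 10.09 in control cells after RA (difference 0.55 ± 0.05 SE, adjusted p = 3.76e-05). Snord52, in 1110038B12Rik, read 8.45, 8.41 and 8.41 in KD cells after RA, against 7.95, 7.76 and 7.74 in control cells after RA (0.61 ± 0.08 SE, adjusted p = 0.000332). In each case the spread between arrays was small beside the difference. Snord118, the U8 RNA gene, stands outside other genes and has 2 probe sets with identical values, which read 9.88, 9.67 and 10.01 in KD cells after RA, against 9.32, 9.3 and 8.97 in control cells after RA. Its call was close to the limit (0.66 ± 0.22 SE, adjusted p = 0.0474), and it was lost in 8 of the 12 fits with 1 array left out, as was that of Snora44, a box H/ACA snoRNA in Snhg12 (0.6, adjusted p = 0.0497).

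Not every member followed. Snora52, inside Rplp2, had the smallest range of the box H/ACA class and read 13.31, 13.15 and 13.24 in KD cells after RA, against 13.18, 13.25 and 13.14 in control cells after RA (difference 0.04, 95% interval -0.07 to 0.16). The U17 genes Snora73a and Snora73b, which both lie in Snhg3, differed by 0.06 and 0.03, and Snord82, in the nucleolin gene Ncl, by -0.06 (95% interval -0.21 to 0.09). Rnu3a, for the U3 RNA, had a difference of 0.25 (adjusted p = 0.257). The single member whose 3 KD arrays lay below all control arrays was Scarna13, which read 12.2, 12.16 and 12.21 in KD cells after RA, against 12.47, 12.45 and 12.34 in control cells after RA. It passed the p limit with a difference of -0.23 (adjusted p = 0.00465) but not the 1.3-fold limit.

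**Figure D3:**
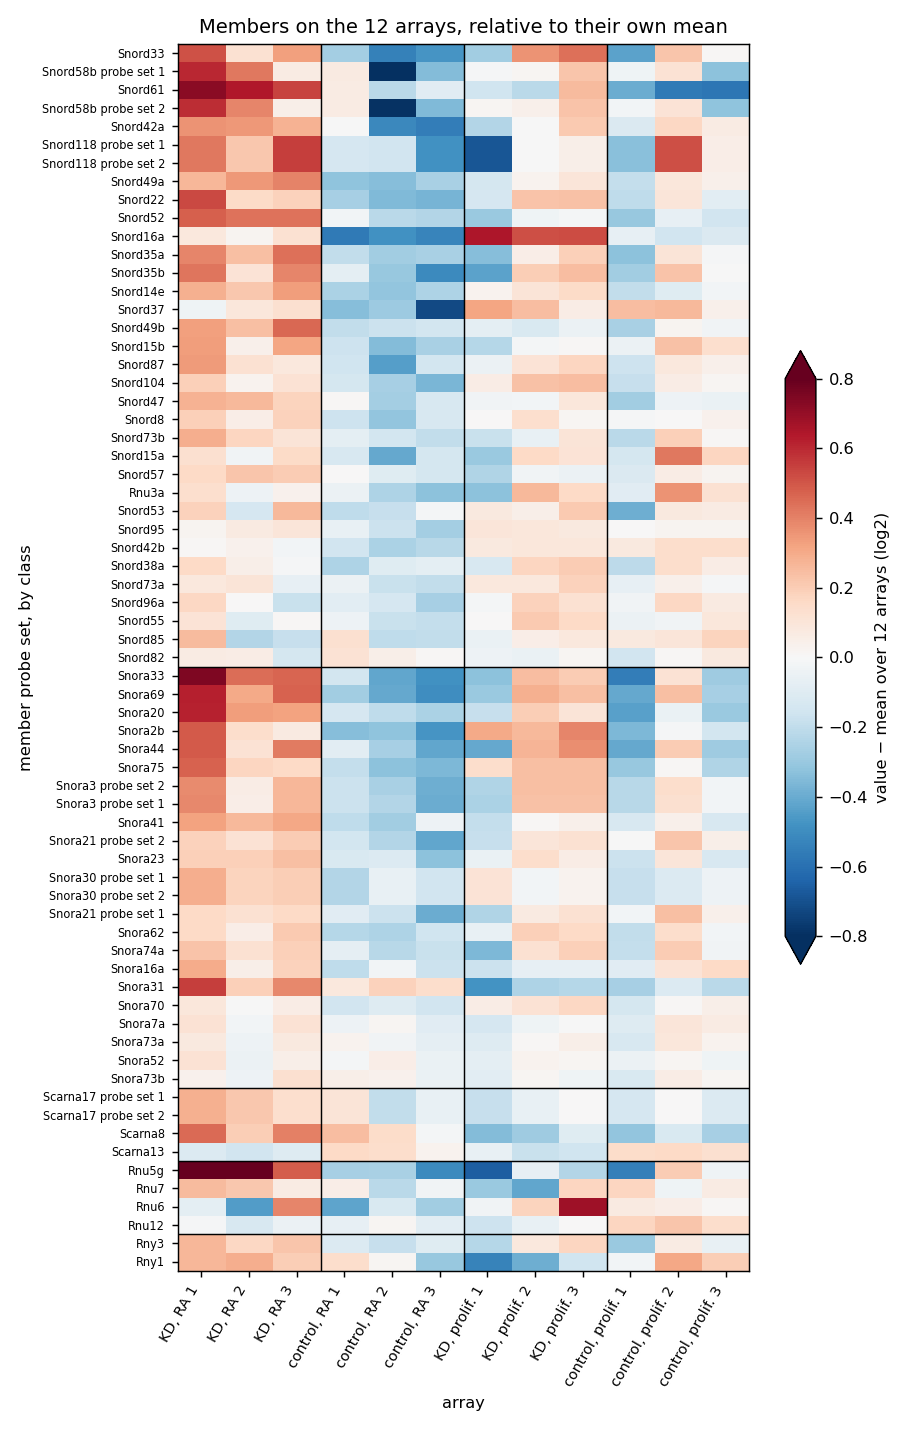
Rows are the 67 member probe sets, by class and within a class by the difference of KD and control after RA, columns are the 12 arrays, and colour is the log2 value minus the member's mean over the 12 arrays. Colours end at 0.8 in either direction. The 3 KD arrays after RA are red and the 3 control arrays after RA blue in most box C/D and box H/ACA rows, while Rnu12 and Scarna13 do not follow this.

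In proliferating cells the comparison asked the same question without RA. Here 4 of 67 members were called higher in KD cells, where 1.95% of all tested probe sets were, and 1 was called lower, where 1.42% of all were. The 3 KD arrays lay above all control arrays for 12 members and below them for 3, against 19.9% and 18.8% of all tested probe sets, and the median member difference was 0.03. The 4 higher members were Snord16a, Snora2b, Snord61 and Snora75, and all 4 were among the 30 called higher after RA. The comparisons share no arrays, but they use the same kinds of cell and 1 estimate of the spread, so they are not independent.

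Snord16a, a box C/D snoRNA in the ribosomal protein gene Rpl4, had the smallest adjusted p of the members. It read 12.28, 12.15 and 12.16 in proliferating KD cells, against 11.57, 11.48 and 11.52 in proliferating control cells (0.68 ± 0.05 SE, 1.6-fold, adjusted p = 3.55e-06). After RA it read 11.72, 11.66 and 11.76 in KD cells, against 11.07, 11.15 and 11.11 in control cells (0.6 ± 0.05 SE, adjusted p = 9.13e-06). It was thus higher in KD cells in both states, with all arrays apart, while after RA it was lower in both kinds of cell, with a difference of -0.49 in KD cells and -0.41 in control cells (adjusted p = 1.88e-05 and 7.55e-05). The difference between KD and control cells in their response to RA (the interaction) was -0.07 (95% interval -0.23 to 0.08). The host gene Rpl4 differed by 0.19 between KD and control cells when proliferating and by 0.14 after RA, both under 1.3-fold.

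Snora2b, inside Kansl2, read 8.24, 8.2 and 8.33 in proliferating KD cells, against 7.58, 7.93 and 7.79 in proliferating control cells (0.49, adjusted p = 0.00622). Snora75, inside Ncl, read 8.55, 8.65 and 8.65 in proliferating KD cells, against 8.11, 8.42 and 8.17 in proliferating control cells (0.39, adjusted p = 0.012). All KD arrays lay above all control arrays for both. The Snora75 call was lost without control replicate 1 (adjusted p = 0.0544) or control replicate 3 (adjusted p = 0.0512), and, by the fold limit, without KD replicate 2 or KD replicate 3. Snord61 had a difference of 0.47 (adjusted p = 0.0102), which was 0.33 without KD replicate 3, under the fold limit.

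The member called lower in proliferating KD cells was Rny1, a Y RNA gene. It read 8.31, 8.45 and 8.68 in proliferating KD cells, against 8.82, 9.15 and 9.04 in proliferating control cells (difference -0.52 ± 0.12 SE, adjusted p = 0.00817). After RA the order was the other way, with 9.11, 9.13 and 9.04 in KD cells, against 8.98, 8.86 and 8.54 in control cells, but the difference of 0.3 was not called (adjusted p = 0.0959). The groups did not overlap in either state. The interaction was 0.82 ± 0.17 (SE; 95% interval 0.46 to 1.18) and stayed above the limit (adjusted p = 0.0526). Rny3, the other Y RNA, read 13.41, 13.72 and 13.81 in proliferating KD cells, against 13.34, 13.7 and 13.58 in proliferating control cells, with overlapping arrays. After RA it read 13.9, 13.8 and 13.86 in KD cells, against 13.53, 13.45 and 13.54 in control cells (0.34, adjusted p = 0.0299), just under 1.3-fold.

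The other small nuclear RNAs moved less than Rnu5g. Rnu12, for the U12 RNA of the minor spliceosome, read 8.57, 8.68 and 8.74 in proliferating KD cells, against 8.91, 8.96 and 8.88 in proliferating control cells (-0.25, adjusted p = 0.00606), a difference under 1.3-fold. After RA its values were 8.73, 8.61 and 8.69 in KD cells, against 8.67, 8.75 and 8.65 in control cells, with no separation. Rnu7, for the U7 RNA, read 5.75, 5.71 and 5.56 in KD cells after RA, against 5.55, 5.28 and 5.47 in control cells after RA (0.24, 95% interval -0.03 to 0.52). Rnu6 lay between 2.09 and 3.22 on all arrays, where the level of only 0.1% of the tested probe sets is as low or lower, and it was called in no comparison.

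**Figure D4:**
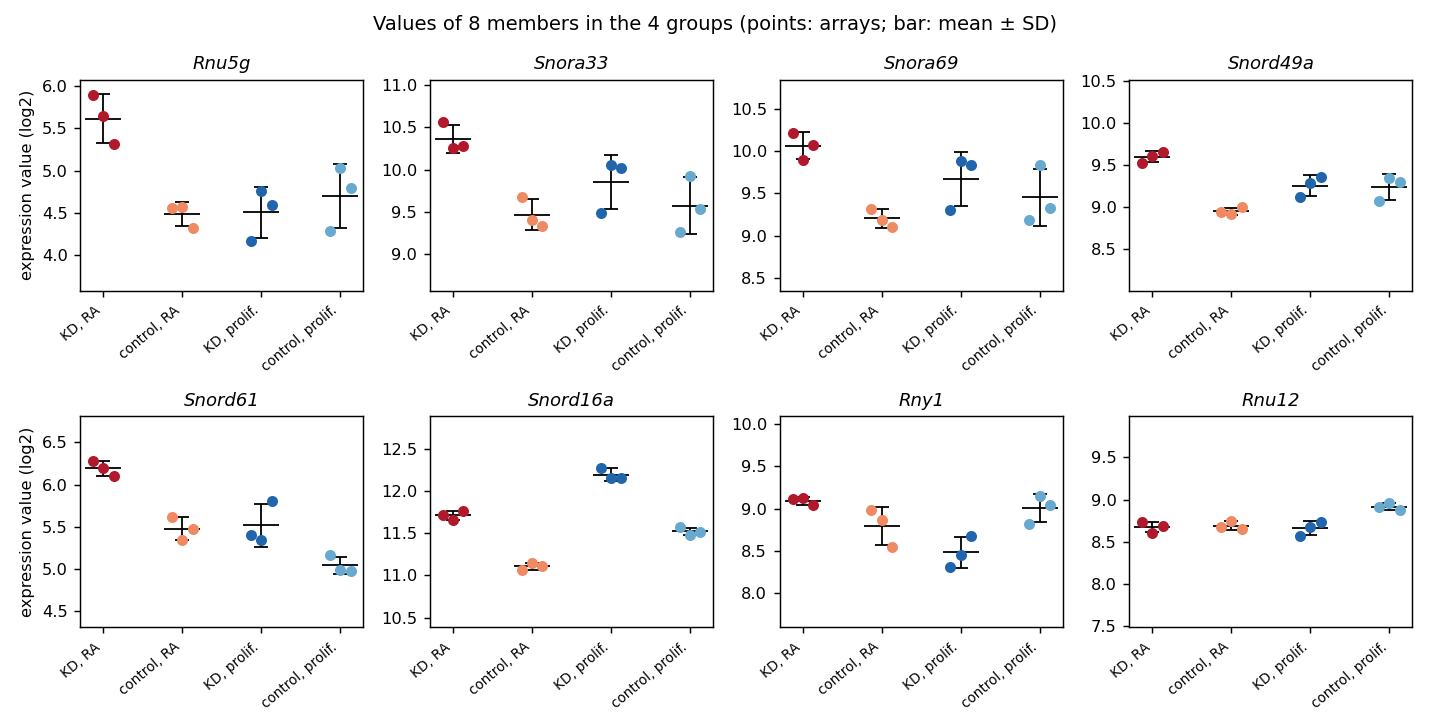
Points are the log2 values of single arrays for 8 members in the 4 groups, and bars are group means ± SD (n = 3). Every panel spans the same height of log2 units. Rnu5g, Snora33, Snora69 and Snord49a are high in KD cells after RA, Snord16a is high in KD cells of both states, Rny1 is low in proliferating KD cells, and Rnu12 is high in proliferating control cells.

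RA against proliferation was compared within each kind of cell. In KD cells 9 of 67 members were called higher after RA, where 2.58% of all tested probe sets were, and 1 was called lower, where 2.32% of all were. Arrays were apart upward for 27 members and downward for 2, against 13.5% and 21.4% of all tested probe sets, and the median member difference was 0.18. This comparison shares the 3 KD arrays after RA with the comparison of KD and control cells after RA. Rnu5g led the rises, with the values given above (1.11 ± 0.2 SE, adjusted p = 0.00142), followed by Snora31, Snord61, Rny1, Scarna8 and Snord52. Snora31, inside the tumour protein gene Tpt1, read 9.69, 9.33 and 9.52 in KD cells after RA, against 8.66, 8.89 and 8.91 in proliferating KD cells (0.69, adjusted p = 0.000128). Scarna8, inside Haus6, read 7.55, 7.29 and 7.5 in KD cells after RA, against 6.75, 6.81 and 7.0 in proliferating KD cells (0.6, adjusted p = 0.00042). For both genes all RA arrays lay above all proliferating arrays. Rny1 was higher by 0.61 (adjusted p = 0.00255). The member called lower was Snord16a.

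In control cells 1 of 67 members was called higher after RA, where 2.68% of all tested probe sets were, and 2 were called lower, where 1.83% of all were. Arrays were apart upward for 3 members and downward for 14, against 16.5% and 17% of all tested probe sets, and the median member difference was -0.17, against 0.00234 over all. Snord37, inside the elongation factor gene Eef2, had the largest fall, with 6.84, 6.89 and 6.46 in control cells after RA, against 7.43, 7.44 and 7.22 in proliferating control cells (-0.63 ± 0.11 SE, adjusted p = 0.00133). In KD cells it read 7.15, 7.27 and 7.31 after RA, against 7.5, 7.43 and 7.24 when proliferating, with overlapping arrays. Snord61 was the member called higher, with 5.62, 5.34 and 5.47 in control cells after RA, against 5.16, 4.99 and 4.98 in proliferating control cells (0.43, adjusted p = 0.0168), and its host gene Rbmx was called higher as well (0.48, adjusted p = 0.000709). The Snord61 call was lost without control replicate 1 after RA (adjusted p = 0.0679) and without proliferating control replicate 2 or 3 (adjusted p = 0.0606 and 0.0617). The count of members called was 6 without proliferating control replicate 1 and 5 without control replicate 1 after RA, and the split was 2 higher and 2 lower when the arrays were quantile normalised again.

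Whether the response to RA differed between KD and control cells was tested as the interaction. Of the members 1 of 67 was called higher, where 0.138% of all tested probe sets were, and 0 were called lower, where 0.262% of all were. At an unadjusted p under 0.05 by the limma fit 34 members were higher and 0 lower, against 5.25% and 9.62% of all tested probe sets. Of the estimates 64 of 67 were positive, with a median of 0.34, against 42.9% positive and a median of -0.0225 over all. The count of members called was between 0 and 12 under the other filters, scalings and moderation. The member called was Snord49a, a box C/D snoRNA in 2410006H16Rik. It read 9.53, 9.61 and 9.66 in KD cells after RA, 8.94, 8.92 and 9.0 in control cells after RA, 9.12, 9.29 and 9.36 in proliferating KD cells and 9.07, 9.35 and 9.3 in proliferating control cells. RA therefore went with higher values in KD cells (0.35) and lower values in control cells (-0.29), and the interaction was 0.63 ± 0.11 (SE; adjusted p = 0.0285). It was not called in 9 of the 12 fits with 1 array left out, with an adjusted p of up to 0.08. Rnu5g had the largest estimate, 1.33 ± 0.28 (SE; 95% interval 0.72 to 1.93), and was above the limit (adjusted p = 0.0547), as were Snord49b, from the same host as Snord49a (0.51, adjusted p = 0.0521), and Snord15b (0.67, adjusted p = 0.0521).

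Because most snoRNAs are cut from introns, each member was set beside the gene whose RefSeq span holds it. A host was measured by a probe set with a single symbol for 33 member probe sets, through 26 of 47 host genes and 78 host probe sets. Rps12, Rpl23a and Rpl27a alone hold 14, 13 and 9 of these. Some of the Rps12 and some of the Rpl23a probe sets gave the same values as one another, so the 78 are not all separate measurements. After RA the median difference of KD and control cells over these 33 pairs was 0.38 for the members and 0.07 for their hosts. The member lay above its host in 30 of 33 pairs. Of the 78 host probe sets 1 was called higher and 0 lower, where 1.82% and 1.98% of all tested probe sets were. It was a Gas5 probe set (0.53, adjusted p = 0.00391), and the other 3 Gas5 probe sets lay between 0.13 and 0.27. Rps12, which holds Snora33, has 14 probe sets with differences between 0.2 and 0.32, all under the fold limit, with an adjusted p of at most 0.0135, against 0.9 for Snora33. Nop56, which holds Snord57, likewise differed by 0.27 (adjusted p = 0.00034), against 0.27 for Snord57. In proliferating cells the medians were 0.11 for the members and 0.08 for the hosts, and the member lay above its host in 10 of 33 pairs. Pairs that tied after rounding were not counted as above. In proliferating cells these were Snord47, Snord53, Snord8, Snora41 and both Snora3 probe sets with their hosts. The Rps12 probe sets differed there by 0.29 to 0.36 (limma adjusted p at most 0.00703), under the fold limit, against 0.29 for Snora33. A difference measured by 2 probe sets also depends on how each follows its RNA, so the size of these gaps is approximate, and no test was made of them.

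**Figure D5:**
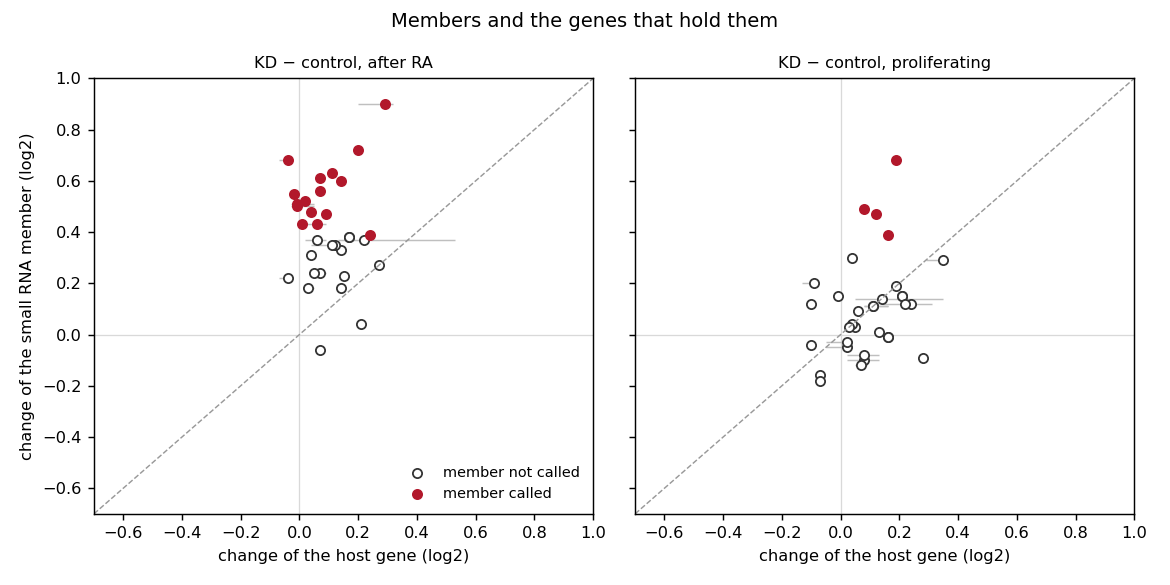
Each circle is a member probe set, placed by the difference of KD and control cells of its host gene (horizontal, log2, median over the host's probe sets with a line from the lowest to the highest) and by its own difference (vertical, log2). The dashed line marks equal differences. After RA 30 of 33 circles lie above it, against 10 of 33 in proliferating cells, where circles on the line after rounding are not counted as above.

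Members that share a host did not always move together. In Ncl, Snora75 differed by 0.56 between KD and control cells after RA (95% interval 0.36 to 0.76) and Snord82 by -0.06 (95% interval -0.21 to 0.09), while the Ncl probe set differed by 0.07. In Rpl23a, Snord42a differed by 0.68 (95% interval 0.38 to 0.98) and Snord42b by 0.22 (95% interval 0.13 to 0.31). The intervals within each of these pairs do not overlap. In Rpl13a, Snord33 and Snord35a differed by 0.75 and 0.6, in 2410006H16Rik, Snord49a and Snord49b by 0.65 and 0.52, and in Snhg12, Snora44 and Snora16a by 0.6 and 0.31. Of the 8 member probe sets outside other genes, for Snord118, Rnu3a, Rnu6, Rnu7, Rnu12, Rny1 and Rny3, 2 were called higher after RA, both of them Snord118, and the median was 0.27.

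Many host genes of snoRNAs start transcription within a run of pyrimidines, known from genes of the translation apparatus. The start windows of 5 host genes of members called higher after RA are printed from RefSeq (GRCm38.p6), with 15 bases before the annotated first base and 14 after it. Capitals mark an unbroken run of at least 6 C or T that touches the 3 bases on either side of the first base, and Rps12 is shown as a host without such a run.
Rpl27a (chr7:109519180-109519209, plus strand, holds Snora3): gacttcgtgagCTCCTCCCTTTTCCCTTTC
Rpl13a (chr7:45128731-45128760, minus strand, holds Snord33 and Snord35a): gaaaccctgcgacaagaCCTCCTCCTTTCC
Ipo7 (chr7:110018300-110018329, plus strand, holds Snora23): ttggcgCTTCTCTTTCCTTTCgcgccggtt
2410006H16Rik (chr11:62602862-62602891, plus strand, holds Snord49a and Snord49b): tcacgcgccgTCTTTCTCTgcggccatcat
Rps12 (chr10:23787195-23787224, minus strand, holds Snora33): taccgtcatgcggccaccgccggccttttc
Such a run was found in 12 of 33 host genes with a start window (36.4%), against 16.7% of 27025 genes with one. The 5 printed hosts hold a run more often than the 33 do. The Rps12 window ends in a stretch of C and T that lies beyond these 3 bases, so the label depends on the annotated start. Whether a run goes with the differences of the members was not tested. A match describes the letters around the annotated start and nothing more.

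Genes for proteins that make and bind these RNAs were compared between KD and control cells after RA. Of the box C/D core protein probe sets, 4 of 8 were called lower in KD cells, and all 4 belong to Snu13, which binds the box C/D motif, with differences between -0.44 and -0.39. Nop56, another core protein, differed by 0.27 (adjusted p = 0.00034), under 1.3-fold, and both Fbl probe sets, for the methylase fibrillarin, differed by -0.11 and -0.05. The Snu13 and Nop56 differences were not particular to the RA state. In proliferating cells the 4 Snu13 probe sets differed by -0.33 to -0.31 (limma adjusted p at most 0.000571). Nop56 differed there by 0.28 (adjusted p = 0.000361), and all of these were under 1.3-fold. Of the 4 box H/ACA core protein probe sets, the 10 of assembly factors and the 16 of the Cajal body and SMN complex, 0 were called by limma. At an unadjusted p under 0.05, where 13.9% of all tested probe sets were higher and 19% lower, the box H/ACA proteins had 1 higher and 0 lower, the assembly factors 1 higher and 6 lower and the Cajal body and SMN complex 4 higher and 1 lower. Calls were also absent for the 8 probe sets of Y RNA binding and trimming factors and the 18 of Pol I and ribosome biogenesis factors, with 2 higher and 0 lower for the first list and 3 higher and 3 lower for the second at an unadjusted p under 0.05 in limma. Of 32 probe sets of Sm and related proteins 3 were called lower, all of Snrpd2, and of 23 of small nuclear RNA transcription and processing factors 1, Ice1, was called higher, with the same difference of 0.51 in both states. Of 13 probe sets of non-coding host genes, for 7 of the 19 genes listed, 2 were called higher, in Gas5 and Snhg5. At an unadjusted p under 0.05, 10 of the 13 were higher and 0 lower, 12 of 13 differences were positive, and the median was 0.23. In the interaction 2 Snhg17 probe sets were called higher (0.43, adjusted p = 0.0423, and 0.48, adjusted p = 0.0364).

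Other structured small RNAs were set beside the members. The 6 probe sets of Rn7sk, Rmrp, Rpph1, Terc and Vaultrc5, which encode RNAs of transcription control, RNA processing, telomerase and the vault particle, had differences of KD and control cells after RA between -0.27 and 0.35, with a median of -0.08. By limma 0 were called, with 2 higher and 3 lower at an unadjusted p under 0.05. Rmrp, the RNA of the enzyme that cleaves the ribosomal RNA precursor, was lower by -0.27 (adjusted p = 0.00125), under 1.3-fold. Of 296 probe sets of microRNA genes 13 were called higher, where 1.82% of all tested probe sets were, and 6 lower, where 1.98% of all were. Their median was 0.01. These microRNA genes were set beside the members after the values were seen.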

How the data were processed

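Per the labels, total RNA was extracted with Qiagen RNeasy Mini columns, made into sense single-stranded DNA with the Ambion WT Expression Kit and hybridised to Affymetrix arrays. Such columns are known to recover RNAs as short as these incompletely, and how much was recovered is not stated. The deposited data hold 1 log2 value per probe set and array, which the authors made by RMA background correction, quantile normalisation and gene-level summary. RMA and limma are named in the submitters' processing notes without versions. Values scaled in this way hide any change in the amount of RNA per cell.

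Of 35556 probe sets 21789 had 1 gene symbol and were fitted together as 4 group means with limma 3.58.1 (lmFit, contrasts, eBayes) in R 4.3.3, two-sided, without a replicate block and without the study's variance filter, so that every member stayed in. The study's filter was an alternative, and 53 members passed it. Adjusted p-values are Benjamini-Hochberg over all 21789 probe sets, errors are limma's standard errors (SE), and calls need an adjusted p under 0.05 and at least 1.3-fold. The number of arrays limits the precision. Pairs of member probe sets for Scarna17, Snord118 and Snora30 hold identical values, which leaves 64 distinct profiles. A further 61 probe sets whose several symbols include small RNAs are no members. A host is a gene whose RefSeq span (GRCm38.p6) holds the member, without regard to strand, and array probes do not separate a mature RNA from its precursor.

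Members and gene lists were chosen with earlier results of these data known. Named are, per comparison, the 6 largest called rises and falls, all small nuclear and Y RNAs, the members of each class with the widest and narrowest range, up to 3 called genes a list and host genes, and other members were named after their values were seen. Alternatives covered filters, scaling, array weights, moderation, fewer arrays, a replicate block, the fold limit and each array left out.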

Additional observations from a re-analysis of the deposited data

Results flagged for a closer look

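Snord49a was singled out because its response to RA differed between KD and control cells by a test of the difference itself (0.63 on the log2 scale, interaction, adjusted p = 0.0285). It lies in 2410006H16Rik, beside Snord49b, whose interaction estimate was 0.51 (adjusted p = 0.0521). Groups of 3 arrays were not searched for single outlying arrays.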

How the results depend on the processing

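Of 1110 values of called members under 23 alternatives, 1007 stayed called in the same direction and 103 did not pass the limits, and 30 of 49 called results were called in every fit that held them. With 1 array left out, the members called ranged from 4 to 6 for KD against control in proliferating cells, from 20 to 33 for KD against control after RA, from 8 to 13 for RA in KD cells, from 2 to 6 for RA in control cells and from 0 to 3 for the interaction. The interaction count, 1 as reported, was 6 with the study's filter, 0 over all probe sets of the table, 12 without probe sets under the median level, 3 with arrays centred on their medians, 4 after repeated quantile normalisation, 4 with array weights and 9 with a trend and robust moderation, so this count depends on the setting. Array weights gave 5 members for RA in control cells. Without the fold limit the counts were 8 and 47 for KD against control when proliferating and after RA, and 20 and 12 for RA in KD and in control cells. Dropping probe sets under the median level left 0 members higher and 3 lower for RA in control cells. Over all tested probe sets, deviations of arrays with the same replicate number had r from -0.0689 to 0.199 over 12 pairs, so the numbers were not taken to pair the arrays. Over the members r was from -0.303 to 0.732, with 0.664, 0.732 and -0.133 for replicates 1, 2 and 3 of proliferating KD and control cells. With the replicate number as a block, the members called were 5, 29, 10, 3 and 1 in the same 5 comparisons, and all calls of the interaction were 59 in place of 87. Keeping 1 of each pair of identical probe sets, chosen after seeing the data, gave 29 members after RA. Probe sets under the median level, 14 of 67 members, carry less signal over background.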

Other observations

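Small RNA genes whose probe sets carry several symbols belong to no comparison above. In a fit of all 35556 probe sets, where 1902 were called for KD against control after RA, 16 of these 61 probe sets, which hold 30 distinct profiles, were called higher and 0 lower, with 53 higher and 0 lower at an unadjusted p under 0.05. In this fit the directions of the 1902 calls and the share of all probe sets at that unadjusted limit were not counted. The unadjusted counts of these 61 therefore have no share to be set against. All 7 Rnu2-10 probe sets, for the U2 RNA of the spliceosome, were called higher, with differences from 0.40 to 0.43, but they hold only 4 distinct profiles. The 9 Rnu1b probe sets, for the U1 RNA, hold 3 distinct profiles. They differed by 0.60 to 0.68 and 0 of them were called by limma, though all 9 had an unadjusted p under 0.05. The 4 identical Rnu3b probe sets, for the U3 RNA, differed by 0.03. Of 24 Snord116 probe sets, from the imprinted snoRNA cluster and with 7 distinct profiles, 1 was called, and the median was 0.22. In proliferating cells 0 of the 61 were called in either direction, where 1253 of all 35556 probe sets were. Their median was 0.14, with 7 higher at an unadjusted p under 0.05 in limma.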
